A study of Mus musculus with 2 samples.

Results

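The 414 long differentially methylated regions described here are the rows of the authors' deposited table that lie on chromosomes 1 to 19, span at least 800 bases, and hold from 2 to below 10 cytosines per 100 bases (the table's cytosine number divided by its length). They are 1.47% of the 28141 deposited regions, and no methylation level was used to choose them. Of 565 autosomal regions of at least 800 bases, 151 fell below the lower density limit and 0 reached the upper one.

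The table compared 2 whole-genome bisulfite libraries, 1 from CD137+ and 1 from PDGFRα+ (also called CD140+) adipose progenitors of C57BL/6 mice. Both kinds of cell were isolated by magnetic sorting from SAT or VAT, grown in culture, exposed to an adipogenic cocktail and then given 1 µM dexamethasone (DEX), a synthetic glucocorticoid, so no group without DEX and no group without the cocktail entered the comparison. The labels do not say which depot gave which library, so marker and depot cannot be told apart; the sources used here give neither age, sex nor number of animals. With 1 library a group there is no replicate spread and no test between the cell types: every value below is a description of these libraries, and every interval of a share is a 95% Wilson interval that covers counting error over regions treated as independent.

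In mammalian DNA, methyl groups sit mainly on the cytosine of CG dinucleotides. Most of the genome is methylated, whereas active promoters and enhancers are usually low in methylation, and long unmethylated stretches are known at genes that control cell identity. Bisulfite turns unmethylated cytosine into a base that is read as T and leaves methylated cytosine unchanged, so a region's methylation level is the fraction of its cytosine readings that stayed C, from 0 to 1.

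The sequences that follow are the 250 bases just before the start site of 6 of the 8 protein-coding genes whose start window lay wholly inside a long region (Lrrc70 and Krtap11-1 are not printed); a start window runs from 250 bases before to 50 after a start site in RefSeq's GRCm38.p6 annotation, which has the coordinates of the mm10 build used by the table. They are shown because the regions over the first 5 were higher in the PDGFRα+ library and the region over Hoxa5 was lower there. The Wipf1 start used, chr2:73485753, lies inside the gene's span, whose upstream edge is at 73529487. The other 5 starts lie at the upstream edge of their genes. Each reads 5′ to 3′ on the gene's strand, and the capitals mark CG dinucleotides. The windows with their 50 bases after the start span chr11:83649329-83649628 (Ccl3), chr11:34783856-34784155 (Dock2), chr3:59262936-59263235 (P2ry12), chr11:17008669-17008968 (Plek), chr2:73485704-73486003 (Wipf1) and chr6:52204538-52204837 (Hoxa5), all on the minus strand.
Ccl3: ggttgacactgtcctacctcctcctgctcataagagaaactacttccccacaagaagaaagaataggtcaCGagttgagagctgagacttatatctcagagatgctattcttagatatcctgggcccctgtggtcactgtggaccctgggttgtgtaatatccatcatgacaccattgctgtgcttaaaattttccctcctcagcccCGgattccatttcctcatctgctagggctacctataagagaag
Dock2: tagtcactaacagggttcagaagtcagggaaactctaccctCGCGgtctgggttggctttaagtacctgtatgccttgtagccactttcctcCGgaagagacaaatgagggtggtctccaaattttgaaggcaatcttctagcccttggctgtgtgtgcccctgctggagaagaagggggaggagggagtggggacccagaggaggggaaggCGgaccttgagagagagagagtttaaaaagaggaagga
P2ry12: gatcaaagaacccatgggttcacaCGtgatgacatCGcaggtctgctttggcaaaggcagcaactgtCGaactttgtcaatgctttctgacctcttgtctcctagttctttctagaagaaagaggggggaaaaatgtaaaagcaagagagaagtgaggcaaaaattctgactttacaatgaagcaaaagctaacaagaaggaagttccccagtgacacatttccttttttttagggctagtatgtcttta
Plek: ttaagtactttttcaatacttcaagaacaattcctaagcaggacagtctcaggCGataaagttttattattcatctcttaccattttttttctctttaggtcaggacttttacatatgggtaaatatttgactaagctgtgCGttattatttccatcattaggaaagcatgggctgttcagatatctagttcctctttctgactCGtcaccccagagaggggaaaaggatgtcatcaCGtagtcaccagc
Wipf1: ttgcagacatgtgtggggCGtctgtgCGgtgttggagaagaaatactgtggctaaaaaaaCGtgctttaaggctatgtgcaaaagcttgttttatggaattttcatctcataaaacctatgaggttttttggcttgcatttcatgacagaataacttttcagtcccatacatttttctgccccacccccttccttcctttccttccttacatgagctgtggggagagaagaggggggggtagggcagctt
Hoxa5: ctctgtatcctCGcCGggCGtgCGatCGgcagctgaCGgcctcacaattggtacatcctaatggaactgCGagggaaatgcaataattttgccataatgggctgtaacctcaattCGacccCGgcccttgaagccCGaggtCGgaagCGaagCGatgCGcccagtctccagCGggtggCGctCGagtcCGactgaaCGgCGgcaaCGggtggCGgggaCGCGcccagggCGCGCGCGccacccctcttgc

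The sequence before Ccl3 holds 2 CG dinucleotides, those before P2ry12 and Wipf1 hold 3 each, and those before Dock2 and Plek hold 4 each. The stretch before Hoxa5, a homeobox gene of body patterning, holds 28. Over all 21263 windows of 17492 protein-coding genes in the RefSeq table, the median was 10 CG (quartiles 3 and 19). The starts not printed, of Lrrc70 in a higher region and Krtap11-1 in a lower one, hold 4 CG each, so the low CG counts occurred in both directions and Hoxa5 alone of the 8 lay above the upper quartile. The letters GGAAGT, the core that ETS-family factors bind, were searched on both strands of the same 250 bases and occur before Ccl3, P2ry12 and Lrrc70 and not before the other 5 genes; 20.4% of all windows hold them, and the match is a description only.

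Most long regions were less methylated in the PDGFRα+ library. Of the 414, 337 (81.4%) were lower and 77 (18.6%, interval 15.2 to 22.6) were higher there than in the CD137+ library. Over all 28141 deposited regions 22.3% were higher, and over the 24146 shorter autosomal regions of the same cytosine density 22.1% (21.6 to 22.6) were. The long regions' share thus lay below the table's share, with an interval that includes it.

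The 337 lower regions had a median level of 0.198 in the PDGFRα+ library (quartiles 0.154 and 0.260) and of 0.796 in the CD137+ library (0.740 and 0.850), a median difference of -0.579. The 77 higher regions had a median of 0.862 in PDGFRα+ (0.836 and 0.903) and of 0.304 in CD137+ (0.252 and 0.352), a median difference of 0.551. In both directions 1 library was mostly methylated and the other mostly not, and in the higher set the less methylated side kept more methylation than in the lower set. Among the shorter regions, the lower ones had medians of 0.263 in PDGFRα+ and 0.820 in CD137+, and the higher ones 0.880 and 0.344. Because the authors listed regions for differing between the libraries, the size of these differences was partly set by that choice.

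**Figure D1:**
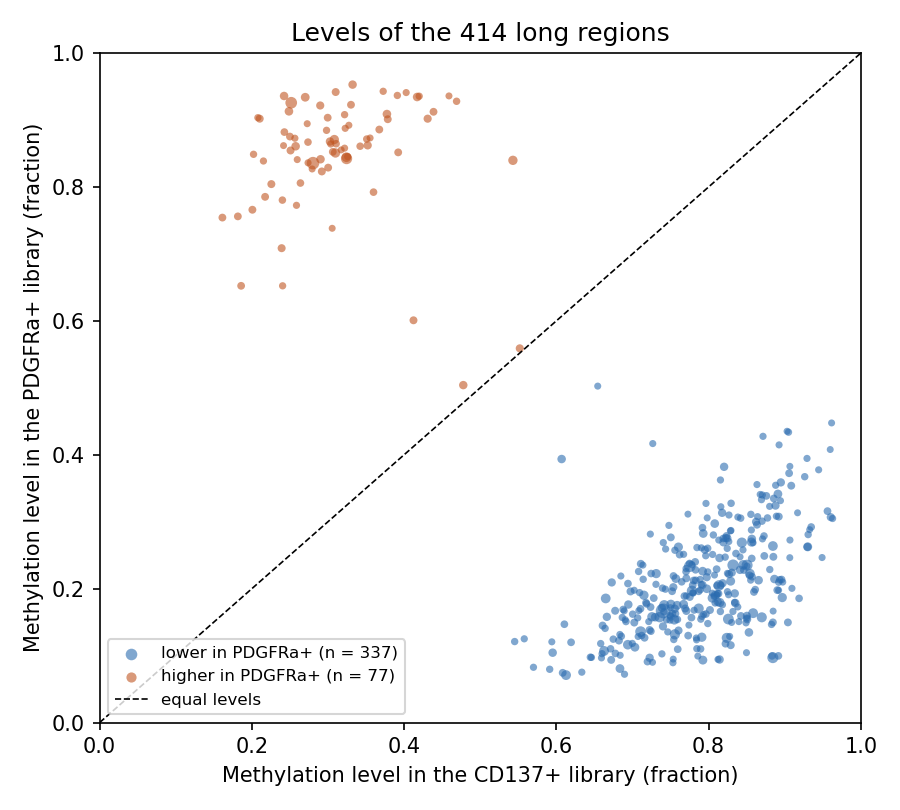
Each point is 1 of the 414 long regions, with its methylation level (fraction) in the CD137+ library on the x axis and in the PDGFRα+ library on the y axis; colour gives the direction, larger points are longer regions, and the dashed line marks equal levels. The 337 lower regions gather at the lower right and the 77 higher ones at the upper left, with a few regions near the line.

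An absolute difference of at least 0.6 was reached by 144 long regions (34.8%, 30.4 to 39.5), beside 23.4% of all deposited regions and 22.4% of the shorter ones. At least 0.5 was reached by 366 (88.4%), beside 59.0% of the shorter ones, yet at 0.7 the shares were 4.59% (19 regions, all lower in PDGFRα+) and 5.02%. Long regions therefore held more differences of 0.5 to 0.7 and no larger share of the widest. The less methylated library was below 0.2 in 177 long regions (42.8%, 38.1 to 47.6) and in 27.0% of the shorter ones. The more methylated library reached 0.9 in 48 (11.6%, 8.86 to 15.0) against 24.1%. A longer region averages over more cytosines (a median of 31 here and 9 in the shorter regions), and the part of that in these shares was not tested.

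At the other end, 6 long regions (1.45%) differed by less than 0.3, although the table lists them. The share was 0.707% of all deposited regions and 0.253% of the shorter ones. Of the 6, 4 count among the 77 higher regions. The region in Slc10a7, chr8:78717194-78718280, stood at 0.559 in PDGFRα+ and 0.552 in CD137+. These levels are nearly equal and intermediate in both libraries, although the region counts as higher. The gene was picked here after its values were seen.

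With length the less methylated side became emptier, though among the higher regions not steadily within the long classes. Among the lower regions, the PDGFRα+ median was 0.304 below 100 bases, 0.225 from 400 to below 800, and 0.186 at 1200 bases or more, while the CD137+ median was 0.829, 0.807 and 0.793. Among the higher regions the CD137+ median was 0.378, 0.316 and 0.309 in the same classes, and the PDGFRα+ median 0.886, 0.872 and 0.866. In the classes between, that CD137+ median was 0.3045 from 800 to below 1000 bases and 0.3002 from 1000 to below 1200. The share of higher regions was 25.0% below 100 bases and 18.4% from 400 to below 800. It then did not follow length: 14.7% of 258 regions from 800 to below 1000 bases, 30.0% (21.5 to 40.1) of 90 from 1000 to below 1200, and 18.2% (10.7 to 29.2) of 66 at 1200 or more.

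**Figure D2:**
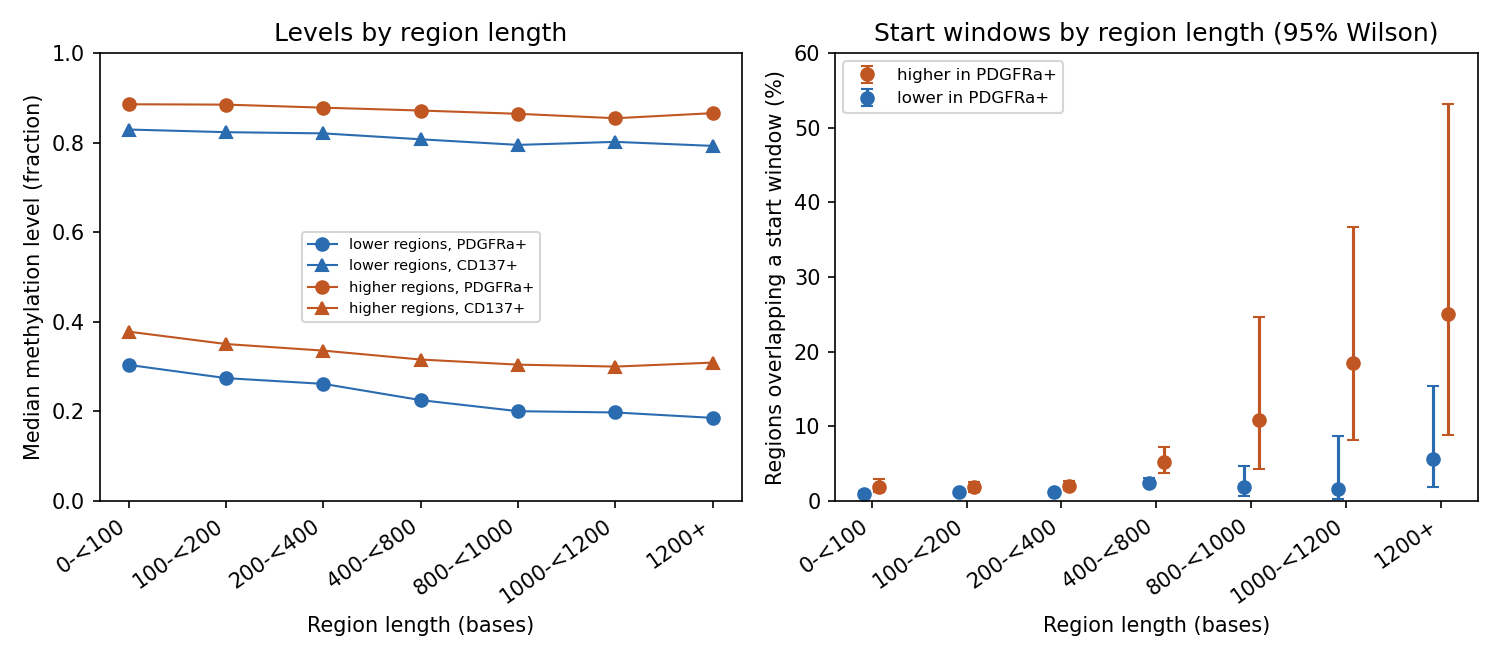
Left, median methylation level (fraction) by region length for lower and higher regions in each library. Right, the share (%) of higher and of lower regions outside chromosome 18 that overlap a start window, with 95% Wilson intervals; at 1200 bases or more it was 25.0% for higher and 5.66% for lower regions, on 12 and 53 regions.

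The regions higher in PDGFRα+ cells more often lay at genes. Of the 414, 252 (60.9%, 56.1 to 65.5) overlapped a protein-coding gene's span or lay within 2 kb of one, beside 55.2% of all deposited regions. By direction this held for 60 of 77 higher regions (77.9%, 67.5 to 85.7) and 192 of 337 lower ones (57.0%, 51.6 to 62.2), intervals that do not overlap; among shorter regions the shares were 62.7% and 53.0%. The 162 long regions away from protein-coding genes had a median distance of 58.1 kb to the nearest, and 17 of them (10.5%) were higher. A long stretch meets genes more easily than a short one, so the long and short shares are not on the same footing. The higher and lower long regions had median lengths of 1002 and 938 bases. They held a median of 3.52 and 3.06 cytosines per 100 bases. A part of length or density in the split by direction was not tested. Whether an overlap is exonic or intronic is not given here.

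Start windows showed the same split by direction. The RefSeq window table has none on chromosome 18, so its 9 long regions were left out here. Of the other 405, 20 (4.94%) overlapped a start window of any gene, beside 1.62% of all deposited regions outside that chromosome. They were 12 of 76 higher regions (15.8%, 9.27 to 25.6) and 8 of 329 lower ones (2.43%, 1.24 to 4.72). For shorter regions the shares were 2.34% and 1.38%. Within the class of 1000 to below 1200 bases, 5 of 27 higher and 1 of 61 lower regions met a start window.

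Starts of protein-coding genes lay in 10 higher regions. A gene can have more than 1 annotated start. Those met at Wipf1, Cytip, Tlr6, Apobec3 and Erg lie inside the gene's span, downstream of its edge. The starts met at Plek, Dock2, Ccl3, P2ry12 and Lrrc70 lie at the upstream edge of the span. Each level given for a start is that of the whole region, which covered only part of the start window at Cytip, Tlr6, Apobec3 and Erg. Over the start of Plek (pleckstrin, a protein kinase C substrate of platelets and leukocytes), chr11:17007781-17008982, the level was 0.861 in PDGFRα+ and 0.258 in CD137+. Over that of Dock2 (a Rac activator of lymphocyte migration), chr11:34783375-34784423, it was 0.854 and 0.251. Wipf1, whose product binds the Wiskott-Aldrich syndrome protein, had 0.804 and 0.226 at chr2:73485373-73486428. In these regions the PDGFRα+ library was mostly methylated and the CD137+ library mostly not. Other regions at these genes were 1 higher and 0 lower at Plek, 1 and 9 at Dock2, and 3 and 2 at Wipf1.

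The chemokine gene Ccl3 carried 0.851 in PDGFRα+ and 0.310 in CD137+ over its start, in a region (chr11:83648420-83649877) that also lay near Ccl4. The region at the start of Tlr6, a receptor for bacterial lipopeptides, had 0.829 and 0.3002. The region at the start of P2ry12, the platelet and microglial ADP receptor, had 0.886 and 0.367. Cytip, a cytohesin-binding protein of leukocytes, had 0.942 and 0.310. Apobec3, an antiviral deaminase, had 0.852 and 0.306. The other 2 were Erg, an ETS factor of endothelial and blood stem cells, with 0.934 and 0.270 at chr16:95458150-95459419, and Lrrc70, in a region it shared with Ipo11, with 0.738 and 0.306. Apart from Erg and Cytip, these start genes were named for their start windows after their values were seen, as were Medag and Krtap11-1.

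Lower regions met the start windows of 3 protein-coding genes, 0.912% of the 329 lower regions, beside 0.786% of all deposited regions and 0.608% of the shorter lower ones. Hoxa5 had 0.185 in PDGFRα+ and 0.665 in CD137+, Medag, a gene known for promoting adipogenesis, had 0.193 and 0.805, and Krtap11-1, a keratin-associated protein gene, had 0.435 and 0.903. The first 2 regions were low in PDGFRα+ and the Krtap11-1 region was intermediate there. The Medag start used lies inside the gene's span, downstream of its edge.

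**Figure D3:**
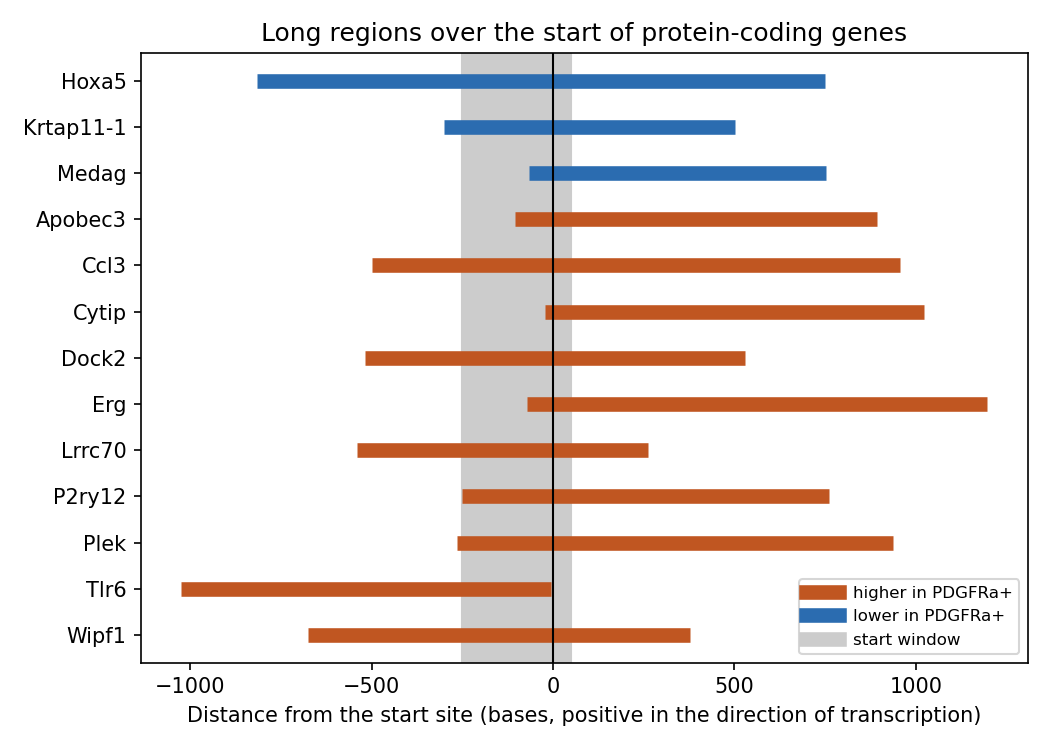
Each bar is the extent of a long region relative to the start site of a protein-coding gene (bases, positive in the direction of transcription; 1 window per gene), coloured by direction, and the grey band is the start window. The 10 higher regions and 3 lower ones reach from up to 1024 bases before to 1197 bases after a start. The Tlr6 bar is drawn against its start at chr5:64959166 and runs from -1024 to -6, so it ends before that start.

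Leukocyte genes were also looked at through a list of 40 markers. Of these, 3 held a long region: Lcp1 (L-plastin, an actin bundler of leukocytes) at 0.836 in PDGFRα+ and 0.280 in CD137+, Laptm5 (a lysosomal protein of blood cells) at 0.754 and 0.161, and Gimap1 (a lymphocyte GTPase) in the opposite direction at 0.234 and 0.775. Of the 40 genes, 26 had a region of any length, and their shorter regions numbered 38 higher and 16 lower, while 22.3% were higher over the table. Neither library thus had low methylation at every leukocyte marker with a long region. Long regions at other genes known from blood cells went both ways. Those named here were picked after their values were seen, so their numbers by direction are not a share to set beside the 18.6% higher over all 414. Higher ones included Ubash3b (0.903 and 0.2996), Elmo1 (0.953 and 0.332), Cbfa2t3 (0.909 and 0.377) and Il4ra, the interleukin 4 receptor (0.882 and 0.243). Lower ones included Jak3 (0.101 and 0.684), Il16 (0.129 and 0.685), Runx3 (0.150 and 0.884) and Arhgap15 (0.135 and 0.853). The share of cells of another type in each library was not estimated from these region levels, and a part of such cells in these values was not tested.

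Markers of other cell types were looked at in the same way, beside 1.2% of all protein-coding genes with a long region. The endothelial list of 24 genes held 1 long region, at Erg. Its shorter regions split into 17 higher and 19 lower, while 22.3% were higher over the table. The 22 mural and smooth muscle genes and the 14 mesothelial and keratin genes held 0 long regions. Of 25 adipose progenitor and fibroblast markers, Pdpn (podoplanin) held 1, a stretch of 1768 bases at chr4:143278268-143280036 with 0.197 in PDGFRα+ and 0.778 in CD137+. The sorting markers themselves gave no long region: Pdgfra had 1 region of 148 bases, Tnfrsf9, which encodes CD137, had 0 regions, and the nearest long regions lay 637 kb and 1051 kb away.

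Altogether 249 protein-coding genes of the 20665 on these chromosomes (1.2%) held or neighboured a long region. Of these, 182 had lower ones only, 63 higher ones only and 4 both. Transcription factor genes of mesenchyme stood among them in both directions. Meis1, a homeobox gene of limb and blood development, had 1899 bases at 0.136 and 0.711, whereas at Meis2 a region 1902 bases outside the gene was higher, at 0.936 and 0.420. The other regions were mostly lower at both genes, 0 higher and 7 lower at Meis1 and 1 and 4 at Meis2.

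Of 65 homeobox and Pax genes outside the Hox clusters, 6 had long regions, beside 1.2% of all protein-coding genes. These regions were 2 higher and 6 lower, with a median difference of -0.555, close to the -0.557 of all 414. Tshz2 (0.245 and 0.857) and Cux1 (0.305 and 0.842) were lower. Of the 39 Hox genes, 3 shared 1 region, at Hoxa3, Hoxa5 and Hoxa6, the densest of all with 9.45 cytosines per 100 bases. The shorter Hox regions numbered 25 higher and 16 lower, while 22.3% were higher over the table.

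Among 37 T-box, forkhead and Gata genes, 5 had 1 long region each, beside 1.2% of all protein-coding genes. Those at Tbx18, a gene of mesothelial and mural progenitors (0.934 in PDGFRα+, 0.417 in CD137+), Tbx2 (0.862 and 0.352) and Foxn3 (0.827 and 0.279) were higher. Those at Gata6 (0.175 and 0.759) and Foxp1 (0.223 and 0.825) were lower. A further list of 58 transcription factor genes was meant for mesenchyme but also held factors of other lineages, such as Lyl1 and Erg. Of these 58, 11 had long regions, 3 higher and 8 lower, beside 1.2% of all protein-coding genes and 18.6% higher over all 414. The higher ones lay at Erg, at Lyl1 with Nfix (0.849 and 0.202) and at Ebf3 (0.652 and 0.186). Ebf3 was named to complete the higher ones, after its values were seen. Ets1 (1796 bases, 0.158 and 0.736), Nfia (1726 bases, 0.132 and 0.756) and Ebf2, a brown adipocyte lineage factor (1348 bases, 0.262 and 0.760), were lower. So was Prdm16, which drives the beige and brown programme, with a wide gap of 0.150 against 0.904. The other regions at Ets1 went the opposite way, 5 higher and 0 lower. Those at Nfia were 2 higher and 25 lower, at Ebf2 3 and 7, and at Prdm16 1 and 14. At Nfix they were 1 higher and 15 lower, opposite in the main to its long region. At Lyl1 they were 1 and 0, at Erg 4 and 3, and at Ebf3 4 and 1.

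The study's title names TEAD1, glucocorticoids and adipocytes, and lists of such genes were counted beside the 1.2% of all protein-coding genes. None of 32 Hippo and TEAD genes had one, although 22 of them had a shorter region. These were 18 higher and 58 lower regions in all, beside 22.3% higher over the table. Tead1 itself had 8 regions, the longest of 466 bases, and the nearest long region was 342 kb away. Of 25 glucocorticoid response genes, 2 had one: Crispld2, a secreted glucocorticoid target (0.928 in PDGFRα+, 0.469 in CD137+), and Ncoa3, a steroid receptor coactivator (0.223 and 0.731). Of 45 adipocyte differentiation genes, 2 had one, both lower in PDGFRα+: Zfp521, a repressor of adipocyte commitment (0.144 and 0.740), and Ppargc1a, the mitochondrial coactivator (0.225 and 0.799).

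For signalling and matrix genes, the direction counts stand beside 81.4% lower over all 414 regions, and the gene counts beside 1.2% of all protein-coding genes. Of 76 Wnt, TGF-β, BMP and hedgehog genes, 4 had a long region and all 4 were lower: Tgfbr3, the TGF-β coreceptor betaglycan, with the widest gap of the 414 (0.0996 in PDGFRα+ and 0.892 in CD137+, difference -0.792), the hedgehog coreceptors Cdon (0.235 and 0.851) and Boc (0.103 and 0.739), and Ltbp1 (0.253 and 0.836). Their median difference was -0.626, beside -0.579 over the 337 lower long regions and -0.557 over all 414, which mix both directions. Of 60 matrix genes, 8 had one, 2 higher and 6 lower. Collagens Col5a2 (0.209 and 0.673) and Col5a1, the protease inhibitor Timp2 (0.228 and 0.841) and Adamtsl1 (0.170 and 0.769) were among the lower. Tnxb (tenascin X, 0.844 and 0.324) and a region at Mmp2, gelatinase A, and its neighbour Lpcat2 (0.902 and 0.210) were the higher.

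Of the 249 genes, 15 carried more than 1 long region; in 11 of them these went in 1 direction and in 4 in both, beside 81.4% of all long regions being lower. There were 3 each in Bicc1 (an RNA-binding protein gene), Ccdc80 (a secreted adipose matrix protein) and Ppp1r12b (a myosin phosphatase subunit), all lower in PDGFRα+. The Ccdc80 regions lay within chr16:45095766-45103300, with PDGFRα+ levels of 0.2999, 0.0968 and 0.128 against CD137+ levels of 0.862, 0.723 and 0.791. In Bicc1 the PDGFRα+ levels were 0.0970, 0.207 and 0.154 against 0.884, 0.731 and 0.755. Another 11 genes had 2. Among these, Sash1, Nfia, Antxr1 (an anthrax toxin receptor), Syne2, Wwox and Arhgap28 had 2 lower ones each.

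In 4 genes the directions differed. Arid5b, a histone demethylase cofactor gene of adipose development, had a lower region (0.0753 in PDGFRα+, 0.633 in CD137+) and a higher one (0.864 and 0.304). Stn1, a telomere maintenance gene, had regions of opposite direction 5063 bases apart, with 0.892 and 0.327 in one and 0.246 and 0.907 in the other. The higher region over the P2ry12 start lay 44040 bases from a lower one (0.199 and 0.861), both also inside Med12l. These were named for their mixed directions after the values were seen.

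Around the long regions, neighbours mostly went the same way. The nearest other region of the table lay within 5 kb for 40 of the 77 higher regions and was also higher for 36 of them (90.0%, 77.0 to 96.0), whereas the same count for shorter higher regions was 65.5% (63.1 to 67.8). For lower regions the shares were 89.6% (83.0 to 93.8) for long and 88.3% for short, while 77.7% of all deposited regions were lower. At any distance, 64.9% (53.8 to 74.7) of long higher regions and 40.5% of short higher ones had a nearest neighbour that was also higher. In the 63 genes with higher long regions only, 117 of 286 shorter regions were higher (40.9%, 35.4 to 46.7), above the table's 22.3% and still a minority. In the 182 genes with lower ones only, 911 of 1082 were lower (84.2%), not far above the table's 77.7%.

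Among long regions at protein-coding genes, counting 1 a gene, the widest gaps in the lower direction after Tgfbr3 and Bicc1 lay at Dcstamp, a cell fusion receptor gene of osteoclasts (0.0995 in PDGFRα+, 0.883 in CD137+), Prdm16, Kat6b (a histone acetyltransferase, 0.104 and 0.850), Zfand3 (0.147 and 0.883), Runx3 (0.150 and 0.884), Arhgap15 (0.135 and 0.853), St3gal4 (a sialyltransferase, 0.157 and 0.870) and Arl15 (0.201 and 0.909). The widest in the higher direction at such genes lay at Ildr1 (0.903 and 0.208, difference 0.696), Mmp2, Mbnl1 (a splicing regulator, 0.926 and 0.252), Ehbp1 (0.913 and 0.249), Erg, a region shared by Lyl1 and Nfix (0.849 and 0.202), Il4ra, Cnih3 (0.922 and 0.290), Cytip and Gm36722 (0.875 and 0.250). In each of these 20 regions 1 library lay near the methylated end of the scale and the other well below the middle.

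**Figure D4:**
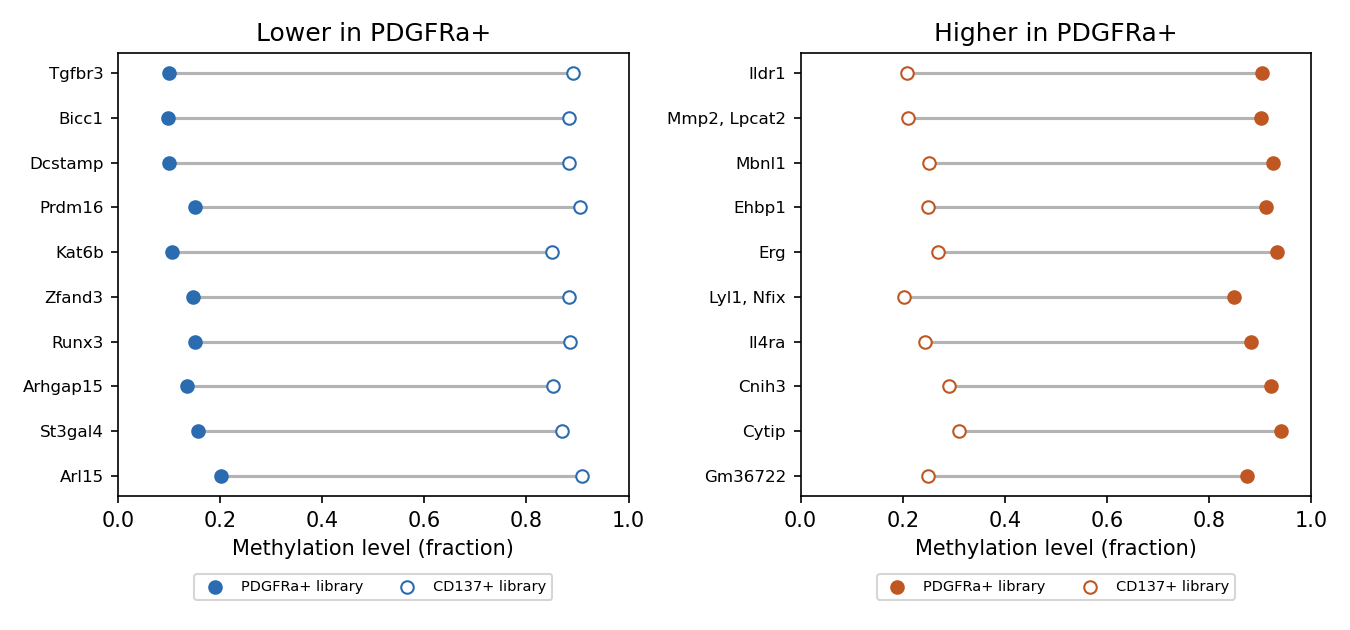
Methylation level (fraction) in the PDGFRα+ library (filled) and the CD137+ library (open) for the 10 widest lower and 10 widest higher long regions at protein-coding genes, 1 region a gene. The lower regions run from about 0.1 to 0.2 in PDGFRα+ up to 0.850 or more in CD137+, and the higher ones from 0.202 to 0.310 in CD137+ up to 0.849 or more in PDGFRα+.

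Ranked by length, the order was another. Among the 10 longest were regions at Lcp1 (2603 bases), Mbnl1 (2247), Gimap1 (2227), Farp1 (2137; 0.235 in PDGFRα+ and 0.832 in CD137+), Nbea with Mab21l1 (2072; 0.842 and 0.324), Cdon (2007) and Bicc1 (2002). A region of 1911 bases, chr12:70555324-70557235, lay 87700 bases from the nearest protein-coding gene, Tmx1, at 0.155 and 0.826. Of the 10 longest, 3 were higher and 7 lower. At the length limit, the shortest regions kept were at Traf3ip2 (800 bases, 0.198 and 0.789), a region at chr15:51574585-51575385 with no protein-coding gene within 2 kb (800 bases, 0.154 and 0.690) and Sik3 (801 bases, 0.383 and 0.907). Just outside it, at 799 bases each, lay regions at Msi2 (0.245 and 0.824), Ptprd (0.0532 and 0.716) and Ppp1r9a (0.223 and 0.892). Levels on both sides of the limit overlapped.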

How the data were processed

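Genomic DNA was sheared, bisulfite converted and amplified by PCR, per the labels' protocols. The authors deposited 1 table of differentially methylated regions on mm10, the build in the submitters' processing notes, whose level columns are a methylation fraction for each library, with their difference, an area statistic (a score with no fixed range, given by the authors), the number of cytosines and the length, per the file headers. No source used here names the aligner, callers, thresholds, cytosine context or coverage minimum, so the depth behind a level is unknown and no level has an interval. All value columns were mapped, leaving 0 unused. The table does not say whether starts count from 0 or 1, so a start may be off by 1 base.

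Regions were selected by length and density, and genes (RefSeq GRCm38.p6 spans, 2 kb flank), start windows and neighbours were assigned with Python 3.11.15, pandas 2.3.3, numpy 2.4.6, scipy 1.17.1 and matplotlib 3.10.9. The overlap search, checked on 300 simulated regions, gave 0 differences from a direct search. All 554 symbols of 14 gene lists matched. The members and lists were chosen with earlier results of these data known. Named were Tead1, Pdgfra and Tnfrsf9, the 10 longest regions, the 10 widest differences at protein-coding genes in each direction, the 10 genes with most regions, up to 5 genes a list by longest region, and the regions beside the length limit; other names are marked, and some results that these rules name are not reported here. No test between cell types was possible with 1 library a group. Alternatives changed the length minimum, density range, minimum difference, weighting, merging, chromosomes and flank.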

Additional observations from a re-analysis of the deposited data

How the results depend on the processing

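Of 72 alternative values over 6 results, 61 stayed within the main value's interval (Wilson for shares, order statistics over regions for medians, both 95%), 11 moved and 0 reversed. With a length minimum of 1000 bases, 25% of regions were higher in the PDGFRα+ library (18.6% in the main selection), 66.0% lay at a protein-coding gene (60.9%), and 30.1% of those at genes were higher (23.8%). With a minimum of 1200 bases, the median difference was -0.58, the PDGFRα+ median 0.202 and the share at a gene 72.7%. With 3 to below 8 cytosines per 100 bases, the median difference was -0.542, the CD137+ median 0.750 and the share higher at genes 29.6%. With differences of at least 0.5 the median was -0.573, and with a 10 kb flank 66.7% lay at a gene. The cause of these moves was not tested. No paired analysis was possible because each group had 1 library. The unknown depth limits every level, most of all in regions with few cytosines, and regions that the authors did not list were not analysed here.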

Other observations

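Genes in this section were picked after their values were seen, and their values are descriptions. Of all 414 long regions 81.4% were lower in PDGFRα+ cells, and those at 3 receptor tyrosine kinase genes were among them: Egfr at 0.0933 against 0.792 in CD137+, Fgfr1 at 0.163 against 0.858 over 1610 bases, and Met at 0.110 against 0.759. Spry2, a feedback inhibitor of such receptors, had 0.198 against 0.890. Higher regions lay at Gnas, an imprinted locus that encodes a G protein subunit (0.865 against 0.311), Acsl1, a fatty acid activating enzyme (0.885 against 0.298), and Gdf6, a BMP-family ligand (0.841 against 0.290). The region at Scd2, a stearoyl-CoA desaturase gene, was lower (0.249 against 0.796) and contains the hairpin of Mir5114.

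Chromosome 7 had 11 higher regions among its 21 long ones (52.4%), beside 18.6% of all 414. It was picked as the largest share of the 19 chromosomes. The share among all deposited regions of chromosome 7 was not counted. Whether the high share is particular to long regions was therefore not tested. Of the 11 higher regions, 3 lay in the noncoding gene Gm29683, with Nr2f2, a nuclear receptor gene, as the nearest protein-coding gene. Of these 3, chr7:70281126-70282191 had 0.709 in PDGFRα+ and 0.239 in CD137+, chr7:70324230-70325047 had 0.894 and 0.273, and chr7:70327737-70328632 had 0.937 and 0.391. The closest was 23314 bases from Nr2f2, which itself held 0 regions. Over all chromosomes, 17 pairs of neighbouring long regions lay within 50 kb of each other, of which 13 were both lower, 2 both higher and 2 opposite.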
